A study of Mus musculus with 9 samples.

Results

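The small leucine-rich proteoglycans are secreted matrix proteins built around a row of leucine-rich repeats. They were described here by 9 of the 19084 named genes on the array, chosen by symbol: Dcn (decorin), Bgn (biglycan), Aspn (asporin), Fmod (fibromodulin), Lum (lumican), Prelp (proline- and arginine-rich end leucine-rich repeat protein), Omd (osteoadherin), Epyc (epiphycan) and Ogn (osteoglycin, also called mimecan). For each gene the probe with the highest mean log2 intensity was used, and all 9 genes passed the filter on values at or below 0. RNA came from primary knee chondrocytes of 1-day-old Kunming mice, grown as a monolayer and then held for 24 h, by the labels, in 1 of 3 conditions with 3 samples each. A figure legend in the paper gives a longer time after seeding, so the time in culture is not settled. Soft ECM was a polyacrylamide gel of 0.5 kPa and stiff ECM a polyacrylamide gel of 100 kPa, both coated with type I collagen according to the methods. The third group is labelled normal, and the labels and methods give no substrate for it, so the gel itself, its coating and its stiffness cannot be told apart in a comparison with normal. The labels number the 3 samples of a group as replicates but do not say that they came from separate cultures or animals, so that the spread behind each p-value may be a technical one.

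The leucine-rich repeats of these proteins form a curved solenoid, and many members bind collagen fibrils with it and limit how thick the fibrils grow. Class I (decorin, biglycan, asporin) carries chondroitin or dermatan sulfate chains, except asporin, which has a run of aspartates in their place. Class II (fibromodulin, lumican, PRELP, osteoadherin) carries keratan sulfate or no chain, and fibromodulin and osteoadherin have sulfated tyrosines. Class III holds epiphycan, a proteoglycan of growth plate cartilage, and osteoglycin. In cartilage the family lies on and between the collagen fibrils, and several members bind TGF-beta or other growth factors.

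In the RefSeq annotation of the mouse genome 8 of the 9 genes stand in 3 neighbourhoods, and those on chromosomes 10 and 13 each hold a gene of class I, class II and class III. Prelp and Fmod are adjacent on chromosome 1, with the opticin gene Optc on the far side of Prelp. Dcn, Lum and Epyc are on chromosome 10, with the keratocan gene Kera between Lum and Epyc. Aspn, Omd and Ogn follow each other on chromosome 13, next to Ecm2, and Bgn stands alone on the X chromosome. The 250 bases before the RefSeq transcription start (GRCm38.p6, 5′ to 3′ on the strand of the gene) are shown for the chromosome 1 pair, which were both lower on the gels, and for the chromosome 13 trio, which were low together in 1 soft ECM sample. Capitals mark matches to 4 motifs: TATAAA on the strand of the gene, and GGAATG (the TEAD motif), TGANTCA (the AP-1 motif) and AACAAT (the SOX motif) on either strand.
Prelp, chr1:133921402-133921651, minus strand: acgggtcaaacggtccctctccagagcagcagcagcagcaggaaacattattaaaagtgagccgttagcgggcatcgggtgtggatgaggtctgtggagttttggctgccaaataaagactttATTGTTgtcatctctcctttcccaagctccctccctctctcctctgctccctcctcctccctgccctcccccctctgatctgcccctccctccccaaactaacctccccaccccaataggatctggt
Fmod, chr1:134037004-134037253, plus strand: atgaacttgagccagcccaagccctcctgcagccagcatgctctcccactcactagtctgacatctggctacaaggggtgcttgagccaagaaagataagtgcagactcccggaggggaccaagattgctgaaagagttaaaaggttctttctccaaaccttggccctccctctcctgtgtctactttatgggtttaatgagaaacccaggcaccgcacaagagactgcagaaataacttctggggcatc
Aspn, chr13:49544193-49544442, plus strand: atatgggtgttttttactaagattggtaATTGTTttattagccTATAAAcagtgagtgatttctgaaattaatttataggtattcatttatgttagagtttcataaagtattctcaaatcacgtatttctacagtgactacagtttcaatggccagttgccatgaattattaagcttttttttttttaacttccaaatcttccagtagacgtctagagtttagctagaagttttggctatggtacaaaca
Omd, chr13:49582212-49582461, plus strand: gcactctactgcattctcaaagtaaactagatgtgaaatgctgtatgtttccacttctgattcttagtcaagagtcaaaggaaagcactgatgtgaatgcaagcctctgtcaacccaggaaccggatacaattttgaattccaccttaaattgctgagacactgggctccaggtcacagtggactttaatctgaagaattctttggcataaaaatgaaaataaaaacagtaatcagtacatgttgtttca
Ogn, chr13:49607765-49608014, plus strand: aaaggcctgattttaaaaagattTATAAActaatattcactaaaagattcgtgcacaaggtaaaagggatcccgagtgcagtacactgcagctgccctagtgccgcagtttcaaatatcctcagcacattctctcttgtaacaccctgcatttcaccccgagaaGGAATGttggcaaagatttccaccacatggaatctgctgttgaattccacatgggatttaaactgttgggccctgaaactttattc

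The 2 promoters of the chromosome 1 pair had a GC content of 51.2% (Fmod) and 55.6% (Prelp), close to the median of 52.4% over 32851 mouse promoter windows of the same length. The chromosome 13 trio had 30.0% (Aspn), 38.4% (Omd) and 42.0% (Ogn), and 1.5%, 9.0% and 15.9% of all windows had a lower GC content than these. The TATAAA match stood 207 bases before the start in Aspn and 227 bases before it in Ogn, and 7.59% of all windows held this motif. The AACAAT matches, in the reverse orientation, stood 127 bases before the start of Prelp and 222 bases before that of Aspn (9.42% of all windows). The GGAATG match of Ogn stood 86 bases before the start (12.6% of all windows). The TGANTCA motif was found in 0 of the 7 members with a promoter in the table (6.75% of all windows). The matched motifs did not overlap each other in the printed windows. Outside the printed windows, Bgn had no match to the 4 motifs and Epyc had matches to AACAAT and GGAATG.

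Intensities are linear and background-subtracted, as deposited, and a level is not set against that of another gene. Signals of different probes depend on the probe, so each gene is compared with itself across the groups. The highest values of every sample pile up at a ceiling, with 16 to 33 probes within 0.1% of the highest value, which lay between 60384 and 70058. Dcn and Bgn reached it. Omd was the dimmest member, brighter than 83.6% of the 567 olfactory receptor probes, which serve as a gauge of silent genes, while the other 8 members were brighter than at least 99.8% of them. In bulk RNA fewer cells of a type and less RNA per cell cannot be told apart.

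Fmod and Prelp, the chromosome 1 pair, were lower on both gels than in the normal samples, by close to the same amount on soft and on stiff ECM. Fibromodulin and PRELP are class II proteins that bind fibrillar collagen, and PRELP also binds heparan sulfate through its basic end. Fmod had intensities of 3838, 3449 and 3752 in the normal samples, 2108, 1795 and 1859 in the soft ECM samples and 1922, 1829.8 and 2028 in the stiff ECM samples. Every gel sample lay below every normal sample, and the gel groups overlapped. On the log2 scale Fmod fell by 0.94 on the soft ECM (SE 0.10, 1.92-fold, limma adjusted p = 0.0031) and by 0.93 on the stiff ECM (SE 0.10, 1.91-fold, adjusted p = 0.0017). Between the gels its difference, stiff minus soft, was 0.01 with a 95% interval of -0.21 to 0.22, so a difference of more than 1.17-fold either way lies outside the interval.

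Prelp had intensities of 27183, 22325 and 27254 in the normal samples, 13425, 13009 and 14578 in the soft ECM samples and 18803, 13802 and 12561 in the stiff ECM samples. The normal samples again lay above all gel samples, and stiff ECM replicate 1 was the highest of the gel samples. Prelp fell by 0.90 on the log2 scale on the soft ECM (SE 0.14, 1.87-fold, limma adjusted p = 0.012) and by 0.78 on the stiff ECM (SE 0.14, 1.72-fold, adjusted p = 0.012). Without stiff ECM replicate 2 the second call was lost (-0.73, adjusted p = 0.054, in a range of 0.0022 to 0.17 over all alternatives). The difference between the gels was 0.12 (95% interval -0.20 to 0.44). The fall of both genes held after quantile normalization, where Fmod had -0.78 and -0.81 and Prelp -0.77 and -0.62 against normal (soft and stiff).

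**Figure D1:**
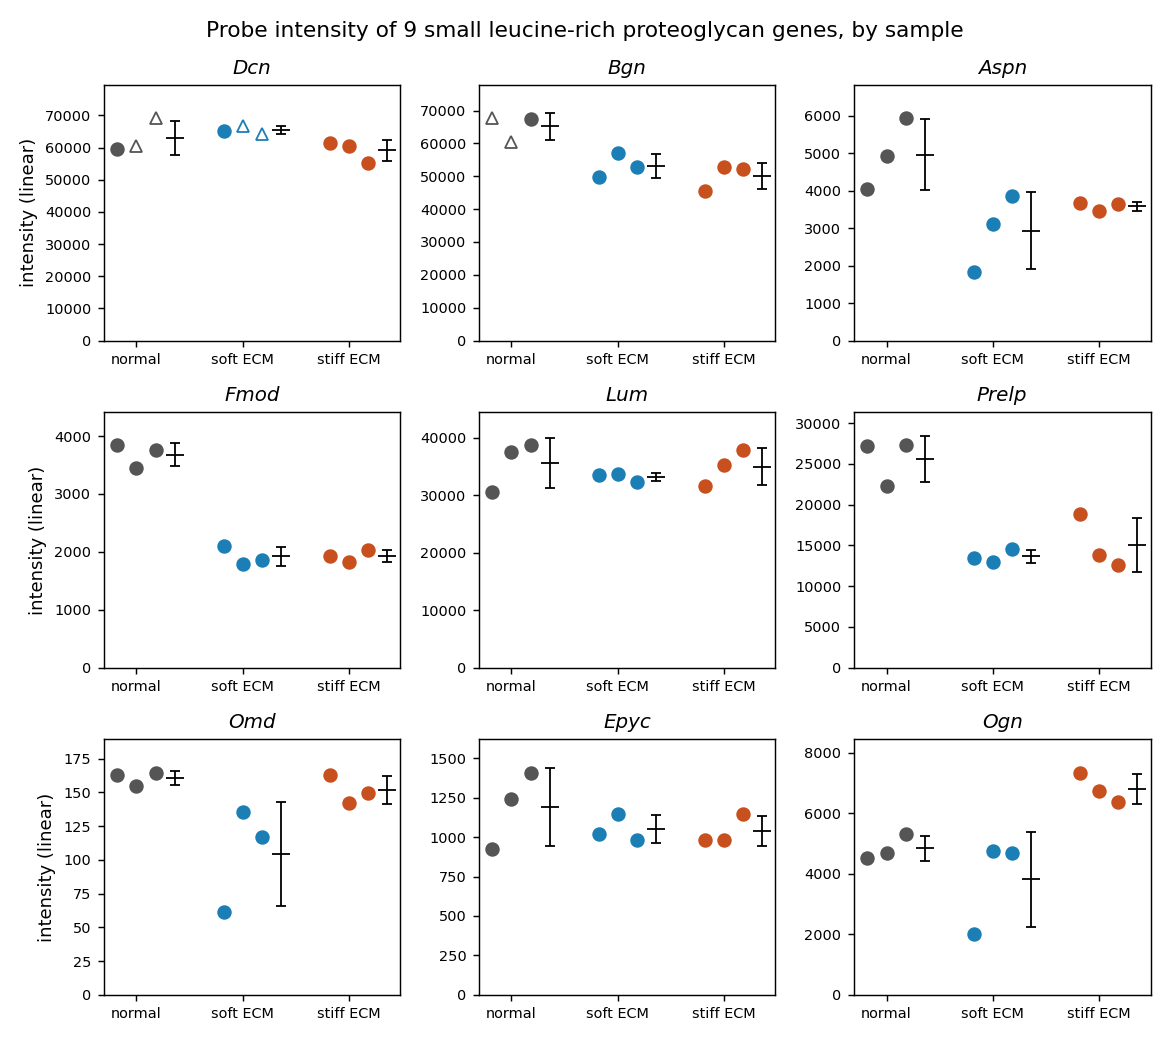
Deposited probe intensity (linear scale, each axis from 0) of the 9 genes in every sample, with the mean and SD of the 3 samples of a group as a bar with caps beside them. Open triangles are values at the ceiling of their sample. Fmod, Prelp, Bgn and Aspn were higher in every normal sample than in every gel sample, and Ogn was higher in every stiff ECM sample than in any other sample.

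Bgn and Dcn, the class I proteoglycans that carry glycosaminoglycan chains, were at or near the ceiling, which compresses their differences. Bgn had intensities of 67656, 60379 and 67456 in the normal samples, the first and second of which were at the ceiling, 49774, 57026 and 52915 in the soft ECM samples and 45509, 52750.1 and 52133 in the stiff ECM samples. All gel samples were below all normal samples. The measured fall of Bgn on the stiff ECM was 0.38 on the log2 scale (SE 0.09, 1.30-fold, limma adjusted p = 0.033). Its measured difference on the soft ECM was -0.29 (SE 0.09, adjusted p = 0.12). Since 2 of the 3 normal values were saturated, the ceiling may have made both falls too small at the deposited scaling. After quantile and loess normalization the stiff ECM difference was smaller, at -0.24 and -0.22 (limma adjusted p = 0.097 and 0.17). The call on the stiff ECM was lost without either saturated normal sample, without soft ECM replicate 3 or without any 1 of the stiff ECM samples, with adjusted p of 0.052 to 0.092, and over all alternatives its adjusted p ran from 0.015 to 0.17. Without both saturated samples the difference was -0.43 (adjusted p = 0.082). Since a saturated value is a lower bound, the level of Bgn in the normal samples is not known from these values.

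Dcn had intensities of 59571, 60383 and 69085 in the normal samples, 65043, 66652 and 64225 in the soft ECM samples and 61402, 60595 and 55287 in the stiff ECM samples. Normal replicates 2 and 3 and soft ECM replicates 2 and 3 were at the ceiling, and soft ECM replicate 1 was at 99.1% of it. The stiff ECM samples lay below the soft ECM samples, and neither differed from normal without overlap. The log2 difference was -0.15 between stiff and soft ECM (95% interval -0.34 to 0.05, limma adjusted p = 0.34), 0.05 between soft ECM and normal and -0.09 between stiff ECM and normal. A second Dcn probe was at the ceiling in 5 of 9 samples and gave 35739 in soft ECM replicate 2, where the first probe was saturated, so the 2 probes disagree in that sample. With this probe the stiff minus soft difference turned to 0.24 (adjusted p = 0.47). For the saturated samples the values of Dcn are lower bounds.

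Aspn, Omd and Ogn, the chromosome 13 trio, had the largest spread of the 9 members among the soft ECM samples (SD of log2 0.55, 0.61 and 0.71), where replicate 1 was the lowest for each. In soft ECM replicate 1 they were 0.92 (Aspn), 1.04 (Omd) and 1.23 (Ogn) log2 units below the mean of the other soft ECM samples, while the remaining 6 members lay between -0.14 and 0.21. Over all 10712 tested probes brighter than the 95th percentile of the olfactory receptors (302.5), 48 (0.448%) were more than 1 log2 unit low in this sample, against 4 to 71 (0.0373% to 0.663%) in the 9 samples. Of the trio only Ogn meets the terms of that count. Omd, with a mean of 139, is below that brightness, and the fall of Aspn was under 1 log2 unit. Nol8, the next gene beyond Ogn, was 0.85 low in the same sample, and Iars after it was 0.09 low. Ecm2, on the other side of Aspn, was 0.48 low. The nearest tested genes around the members on chromosomes 1, 10 and X had differences from -0.77 (Eea1, chromosome 10) to 0.36. The latter was Atp2b3 on the X chromosome, with a mean intensity of only 9.14. The labels give no RNA integrity for single samples, and its part in this was not tested.

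Ogn, the class III gene for osteoglycin, was the only one of the 9 members whose stiff ECM samples all lay above the samples of both other groups. Its intensities were 4513, 4699.7 and 5321 in the normal samples, 2012, 4773 and 4691 in the soft ECM samples and 7349, 6732 and 6369 in the stiff ECM samples. Over all probes 31.7% lay wholly higher on the stiff than on the soft ECM and 19.3% wholly higher on the stiff ECM than in normal. The share of probes that did both was not counted. Every stiff ECM sample of Ogn was above all other samples, while soft ECM replicates 2 and 3 lay within the normal range and replicate 1 far below it. Stiff minus soft ECM was 0.94 on the log2 scale (limma, SE 0.27, adjusted p = 0.091) and stiff ECM minus normal was 0.49 (SE 0.27, adjusted p = 0.24), and neither passed 0.05. Without soft ECM replicate 1 the first was 0.52 (SE 0.10, adjusted p = 0.078) and the second 0.49 (SE 0.09, adjusted p = 0.018), and over all alternatives the adjusted p ran from 0.03 to 0.27 and from 0.018 to 0.43. Soft ECM minus normal was -0.44 with this sample and -0.03 without it.

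Aspn, for asporin, which binds collagen and TGF-beta, had intensities of 4041, 4921 and 5937 in the normal samples, 1833, 3106 and 3869.8 in the soft ECM samples and 3668, 3449 and 3645 in the stiff ECM samples. The normal samples lay above all gel samples and the gel groups overlapped. The log2 difference from normal was -0.81 on the soft ECM (SE 0.23, limma adjusted p = 0.083) and -0.45 on the stiff ECM (SE 0.23, adjusted p = 0.21), neither past the threshold, and without soft ECM replicate 1 the first was -0.50 (adjusted p = 0.15, in a range of 0.027 to 0.4). Omd, for osteoadherin, a keratan sulfate protein of mineralized matrix, had intensities of 163, 155 and 165 in the normal samples, 61.1, 135 and 117 in the soft ECM samples and 163, 142 and 149.8 in the stiff ECM samples. The soft ECM samples lay below all others, and normal and stiff ECM overlapped. The difference of Omd was -0.70 between soft ECM and normal (SE 0.25, adjusted p = 0.15) and 0.62 between stiff and soft ECM (SE 0.25, adjusted p = 0.2). Without soft ECM replicate 1 these were -0.36 (adjusted p = 0.3) and 0.27 (adjusted p = 0.43), and over all alternatives they ran from 0.092 to 0.45 and from 0.12 to 0.45.

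**Figure D2:**
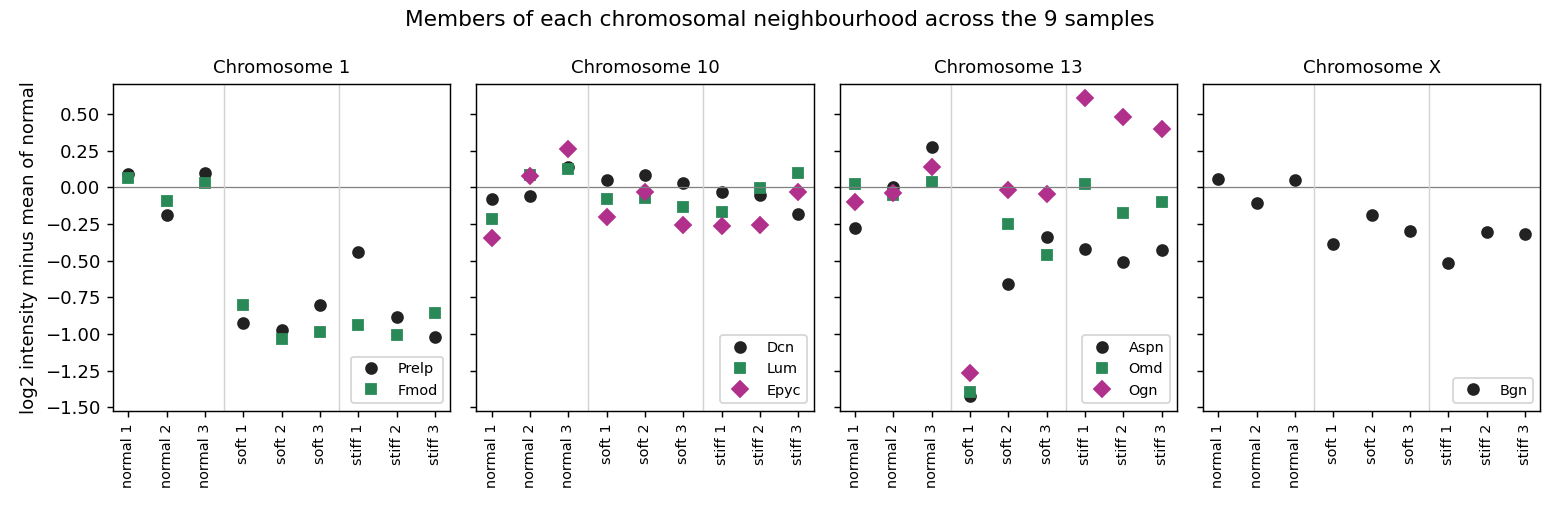
Log2 intensity of each gene minus the mean of its 3 normal samples (vertical axis), in the 9 samples in order of group and replicate (horizontal axis), with a panel for each chromosome. The chromosome 1 pair lay below 0 in all 6 gel samples, and the chromosome 13 trio had its lowest values together in soft ECM replicate 1.

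Lum and Epyc, of the chromosome 10 neighbourhood, overlapped between all groups and passed in no comparison of the main fit. Lumican is a class II keratan sulfate proteoglycan of cornea and connective tissue, and its gene had intensities of 30531, 37568 and 38653 in the normal samples, 33526, 33632 and 32301 in the soft ECM samples and 31517, 35334 and 37913 in the stiff ECM samples. The groups overlapped in all pairs, and the log2 differences were -0.09 (soft ECM against normal), -0.02 (stiff ECM against normal) and 0.07 (stiff against soft ECM), with 95% intervals from -0.33 at the lowest to 0.31 at the highest. The widest bound, on the soft ECM against normal, corresponds to a 1.26-fold difference. Epyc had intensities of 926, 1241 and 1409 in the normal samples, 1022, 1149 and 985 in the soft ECM samples and 979.9, 984 and 1149 in the stiff ECM samples. Its 3 groups overlapped as well, and its differences were -0.16, -0.18 and -0.02 in the same order (SE 0.15 each, limma adjusted p = 0.6, 0.44 and 0.95). With sample weights Epyc was called lower on the stiff ECM than in normal (-0.30, SE 0.09, adjusted p = 0.032), in a range of 0.032 to 0.84 over all alternatives.

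Counted together, 2 of the 9 members were lower on the soft ECM than in normal (Fmod and Prelp) and 0 were higher, where 3.21% of all 24942 tested probes were called lower and 0.493% higher. On the stiff ECM 3 of 9 were below normal (Fmod, Prelp and Bgn) and 0 above, where 5.14% of all probes were called lower and 4.8% higher. Between stiff and soft ECM 2 members (Ogn and Omd) had an unadjusted limma p under 0.05. Such a p was found for 5392 of all 24942 tested probes, in either direction. Against normal it was found for 4970 (soft ECM) and 7488 (stiff ECM), and later counts at an unadjusted p are read beside these. By adjusted p limma and the methods' t-test called 0 of 9 between the gels, where limma called 1.35% of all probes higher and 0.417% lower. The 337 higher and 104 lower probes behind these shares became 0 and 0 without stiff ECM replicate 2 and 2075 and 302 without normal replicate 1, and without any other 1 sample they lay between 42 and 638 higher and between 17 and 169 lower. The median log2 difference of the 9 members against normal was -0.44 for soft and -0.18 for stiff ECM, beside -0.09 and 0.09 over all probes, and 0.07 between stiff and soft ECM, beside 0.18 over all probes.

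Groups without overlap were counted in the same way. On the soft ECM 5 members lay wholly below normal (Bgn, Aspn, Fmod, Prelp and Omd) and 0 above, where 18.3% of all probes lay below and 5.26% above. On the stiff ECM 4 lay wholly below normal (Bgn, Aspn, Fmod and Prelp) and 1 above (Ogn), where 14.6% of all probes lay below and 19.3% above. Between the gels 2 lay wholly higher on the stiff ECM (Ogn and Omd) and 1 lower (Dcn), where 31.7% of all probes lay higher and 6.39% lower. The comparisons against normal share the 3 normal samples.

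**Figure D3:**
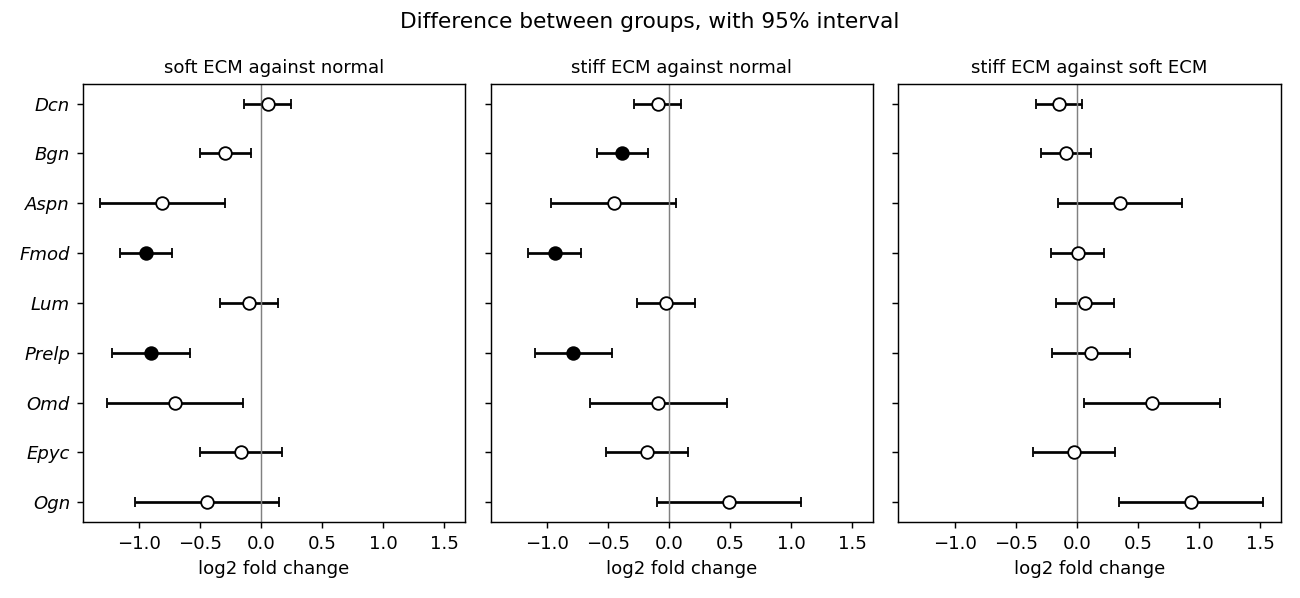
Log2 fold change of each gene (points) with its 95% interval (bars) in the 3 comparisons, from the limma fit of all 9 samples. Filled points passed an adjusted p of 0.05: Fmod and Prelp against normal on both gels and Bgn on the stiff ECM; the intervals of Aspn, Omd and Ogn were the widest.

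The 9 genes were also compared by how alike they varied across the samples. As a description over 9 samples that share the shift between groups and the array of each sample, the highest Pearson r of log2 intensity among the 36 pairs was that of Prelp and Fmod (0.91, and 0.82 after quantile normalization). Ogn and Omd had 0.87, Aspn and Omd 0.85, and Lum and Epyc 0.85. Over the 7 pairs on the same chromosome the median r was 0.85, in a range of -0.02 to 0.91, and over the other 29 pairs it was 0.23, in a range of -0.36 to 0.84. After quantile normalization these medians were 0.61 and 0.05. Values of Dcn and Bgn follow the ceiling in their saturated samples, and without the pairs that hold them the medians were 0.85 over 5 pairs and 0.25 over 16. Without soft ECM replicate 1, an alternative chosen after seeing the values, the median over all same-chromosome pairs was 0.40, beside 0.26 over the other 29 pairs: Ogn and Omd had 0.27 and Ogn and Aspn -0.27, while Prelp and Fmod had 0.92. The likeness within the chromosome 13 trio thus rested on that sample, and the likeness of the chromosome 1 pair did not.

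**Figure D4:**
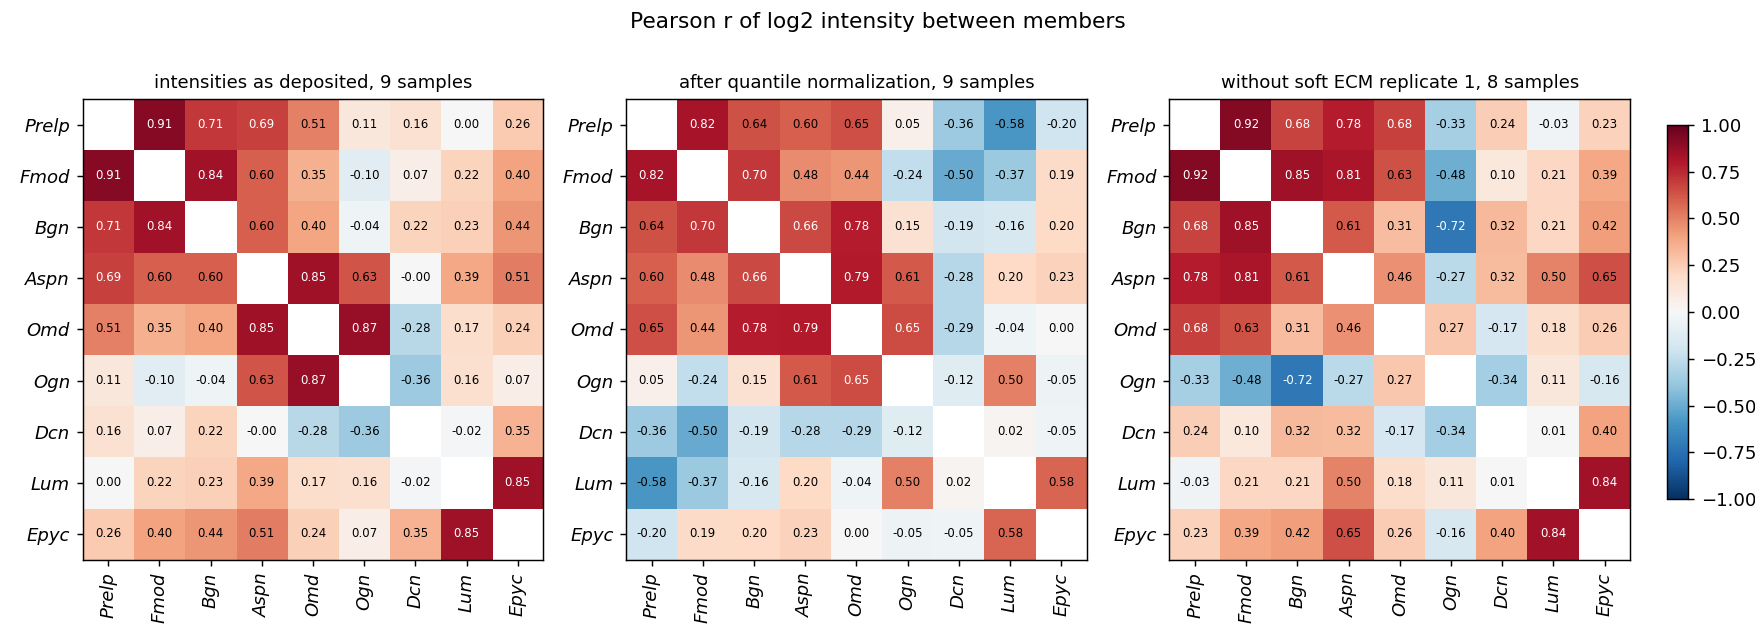
Pearson r of log2 intensity for every pair of members (colour from -1 to 1, values printed in the cells), as deposited, after quantile normalization and without soft ECM replicate 1. Prelp and Fmod stayed at 0.82 or above in all 3 panels, while the values with Dcn or Bgn include saturated samples and those among Aspn, Omd and Ogn dropped to between -0.27 and 0.46 in the last.

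Among 9301 genes brighter than the 95th percentile of the olfactory receptors, the 3 with the highest r over the 9 samples were Myo9b, Nudt8 and Ifi27l2a for Fmod (0.98 each) and Ccdc9b, Dst and Klf6 for Prelp (0.99 each). They were Lysmd3, Zfp292 and Ro60 for Ogn (0.98 to 0.99), Lztfl1, Ccdc66 and Golgb1 for Aspn (0.96 to 0.97) and Ift74, Odr4 and Ktn1 for Omd (0.98). They were Gm6878, Gas2 and Cep44 for Lum (0.93 to 0.96) and H2-M3, Gpcpd1 and Cep44 for Epyc (0.94 to 0.95). Dcn and Bgn are left out of this ranking because of their saturated samples. With 9 samples and this many genes, values of this size are a ranking and no more.

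Other genes of the family mostly did not pass. Of 8 further family genes and close relatives on the array, 1 was lower on the stiff ECM than in normal, Podnl1, for a podocan-like protein (-0.64, SE 0.18, limma adjusted p = 0.046), and 0 of 8 passed in the other comparisons, with 5 (soft ECM against normal) and 4 (stiff against soft ECM) at an unadjusted p under 0.05. Over all 24942 tested probes 4970 and 5392 had such a limma p in these comparisons, in either direction. The methods' t-test called 0 of them in any comparison. Over all probes 5.14% were called lower on the stiff ECM than in normal. The call of 1 on the stiff ECM fell to 0 in 13 of 22 alternatives, among them every left-out sample but normal replicate 2, and without normal replicate 1 the counts were 2 on the soft ECM against normal and 3 between the gels. Kera, for the corneal proteoglycan keratocan, had intensities of 57.9, 81.1 and 93.9 in the normal samples, 119, 125 and 128 in the soft ECM samples and 68.3, 67.3 and 85.6 in the stiff ECM samples. It was highest in every soft ECM sample, but dim, brighter than 75.0% of the olfactory receptor probes, and did not pass (0.71 on the soft ECM against normal, adjusted p = 0.087, and -0.76 for stiff against soft ECM, adjusted p = 0.079). Chad, for the collagen-binding protein chondroadherin, had a difference of 0.47 between stiff and soft ECM (adjusted p = 0.092), and Optc, the neighbour of Prelp, one of 0.45 (adjusted p = 0.12). Against normal on the soft ECM, Podn, for podocan, had -0.44 (adjusted p = 0.1) and Ecm2, the neighbour of Aspn, -0.60 (adjusted p = 0.13).

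Enzymes that build the glycosaminoglycan chains of this family were counted next. Of 20 measured genes for chondroitin and dermatan sulfate chain assembly, 0 were higher than in normal on either gel, 1 was lower on the soft ECM and 2 were lower on the stiff ECM, where 3.21% and 5.14% of all probes were lower. These counts ran from 0 to 7 and from 0 to 8 over the alternatives, and from 0 to 2 and from 1 to 4 with 1 sample left out. The soft ECM count was 0 without normal replicate 2 or 3, soft ECM replicate 2 or 3 or stiff ECM replicate 2, and 2 without normal replicate 1. The stiff ECM count was 1 without normal replicate 2 or stiff ECM replicate 2 or 3, and 4 without normal replicate 1. Chpf2, for a chondroitin polymerizing factor, had intensities of 1882, 1828 and 1982 in the normal samples, 1512, 1249 and 1305 in the soft ECM samples and 1331, 1135 and 1164 in the stiff ECM samples, and fell by 0.49 (SE 0.11, limma adjusted p = 0.036) and 0.65 (SE 0.11, adjusted p = 0.0084) on the log2 scale. B4galt7, for a galactosyltransferase of the linker between protein and chain, fell by 0.52 on the stiff ECM (SE 0.11, adjusted p = 0.022), beside -0.45 on the soft ECM (adjusted p = 0.058). Of 9 genes for keratan sulfate chains and tyrosine sulfation, 1 was lower on the soft ECM than in normal, and on the stiff ECM limma and the methods' t-test called 0 (3 at an unadjusted p under 0.05). Chst1, for the galactose sulfotransferase of keratan sulfate, had 506, 405 and 521 in the normal samples, 289, 253 and 322 in the soft ECM samples and 412, 395 and 387 in the stiff ECM samples, and fell by 0.73 on the soft ECM (SE 0.14, adjusted p = 0.022). This count of 1 became 0 in 6 of 22 alternatives, among them without normal replicate 3 and without soft ECM replicate 1 or 2. Between stiff and soft ECM limma and the methods' t-test called 0 of these 29 genes, with 3 at an unadjusted p under 0.05, among them Chst1 (0.47, adjusted p = 0.098) and Chsy1, for a chondroitin synthase (0.28, adjusted p = 0.093).

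Collagens that these proteins bind were lower on the gels in most calls. Of 14 fibrillar, fibril-associated and type VI collagen genes, 8 were lower than in normal on the soft ECM, 10 were lower on the stiff ECM and 0 were higher on either, with a median difference of -0.62 and -0.61, and between the gels limma and the methods' t-test called 0 (1 at an unadjusted p under 0.05). Over all probes 3.21% and 5.14% were lower. By the methods' t-test the counts against normal were 0 and 0. The soft ECM count was 4 to 8 with 1 sample left out, at 4 without normal replicate 2 and at 5 without normal replicate 3 or soft ECM replicate 1 or 3. The stiff ECM count was 6 to 11, at 6 without stiff ECM replicate 2. Col2a1, the main collagen of cartilage fibrils, had intensities of 11070.0, 9229.6 and 8719.6 in the normal samples, 3568, 3963 and 3304 in the soft ECM samples and 4092, 3505 and 4069 in the stiff ECM samples. Its log2 fold change against normal was -1.42 on the soft ECM (SE 0.12, limma adjusted p = 0.001) and -1.31 on the stiff ECM (SE 0.12, adjusted p = 0.00096). The fold changes, soft and then stiff ECM, were -1.31 and -0.76 for Col11a1, a collagen XI chain of the same fibrils, -0.78 and -0.61 for Col12a1, a fibril-associated collagen, and -0.62 and -0.68 for Col1a2, a type I chain. Fmod and Prelp were called lower on both gels, as were 8 of these 14 collagens. The share of all probes called lower on both gels was not counted, and both comparisons use the same 3 normal samples. A link between the 2 members and the collagens was not tested.

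Growth factors and receptors reported to bind these proteins moved both ways. Of 14 tested genes, 2 were lower on the soft ECM than in normal. On the stiff ECM 4 were lower than in normal and 2 were higher, where 5.14% of all probes were lower and 4.8% higher. The 2 calls on the soft ECM became 0 without normal replicate 2 or soft ECM replicate 2, 1 without soft ECM replicate 3 and 3 without soft ECM replicate 1, and 0 to 6 over all alternatives. The 6 on the stiff ECM became 1 without normal replicate 2 or stiff ECM replicate 2 and 3 without stiff ECM replicate 3, and 0 to 10 over all alternatives. Tgfb3, for a TGF-beta ligand that decorin and biglycan bind, had intensities of 3451, 3385 and 4101 in the normal samples, 2364, 2122 and 2565 in the soft ECM samples and 2079, 1892 and 1759 in the stiff ECM samples, with falls of 0.63 (SE 0.11, limma adjusted p = 0.018) and 0.93 (SE 0.11, adjusted p = 0.0028). Igf1r, for a receptor bound by decorin, fell by 0.49 on the soft ECM (adjusted p = 0.018), and Ccn4, for a matricellular protein bound by decorin and biglycan, by 0.61 on the stiff ECM (adjusted p = 0.015). Met, for the HGF receptor, another decorin target, rose by 0.72 on the stiff ECM against normal (SE 0.15, adjusted p = 0.018). Met had intensities of 2123, 1948 and 1475 on the stiff ECM and 1251, 1047 and 1223 on the soft ECM, without overlap, and the difference of 0.64 did not pass (adjusted p = 0.055). Between the gels limma called 0 of the 14 (5 at an unadjusted p under 0.05), and the methods' t-test called 1 (Kdr, for a VEGF receptor, 0.44 in limma, adjusted p = 0.14).

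Of 10 proteases that process or cleave the family, 2 were lower on each gel than in normal and 0 were higher, where 3.21% (soft ECM) and 5.14% (stiff ECM) of all probes were lower. The soft ECM count fell in 12 of 22 alternatives and was 0 to 3 with 1 sample left out, at 0 without normal replicate 2 or soft ECM replicate 1 or 2 and at 1 without normal replicate 3, soft ECM replicate 3 or stiff ECM replicate 2. The stiff ECM count was 0 to 6 over the alternatives, at 0 without stiff ECM replicate 2 and by the methods' t-test and at 1 without stiff ECM replicate 3. Bmp1, for the procollagen C-proteinase that also trims the propeptides of biglycan and osteoglycin, had intensities of 994, 987 and 1307 in the normal samples, 571, 631 and 742 in the soft ECM samples and 736, 652 and 642 in the stiff ECM samples. It fell by 0.75 (SE 0.14, limma adjusted p = 0.021) and 0.69 (SE 0.14, adjusted p = 0.019) on the log2 scale. Mmp3, for stromelysin, fell by 0.39 (adjusted p = 0.028) and 0.40 (adjusted p = 0.016). Between the gels limma and the methods' t-test called 0 of 10 (2 at an unadjusted p under 0.05), and Mmp2, for gelatinase A, had -0.54 (adjusted p = 0.065).

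Marker genes of several cell types moved with the same comparisons, and their part in the results was not tested. Of all 24942 tested probes, 3.21% were called lower and 0.493% higher on the soft ECM than in normal. On the stiff ECM 5.14% were called lower and 4.8% higher than in normal. Between stiff and soft ECM 1.35% were called higher and 0.417% lower. Of 8 chondrocyte markers 1 was lower on the soft ECM (Col2a1) and 2 on the stiff ECM (Col2a1 and Col9a1), and their summed intensity was 12970.4 to 15481 in the normal samples, 6202 to 7195 on the soft ECM and 6488 to 7542 on the stiff ECM. Within these sums Col2a1 alone had 8720 to 11070, 3304 to 3963 and 3505 to 4092. A sum follows the brightest probes of its list and does not show that all markers moved. Sox9 had 612 to 815 in all samples, while Matn1 was near 0 (3.10 to 10.7) and Cnmd dim (24.7 to 66.1). Of 8 fibroblast and tendon markers 5 were lower on each gel, with sums of 109316 to 126460.4 in normal, 85687 to 93110.1 on the soft ECM and 85653 to 88542 on the stiff ECM, and these include the collagens Col1a2 and Col3a1. Of 8 skeletal muscle markers 0 were lower on the soft ECM than in normal (0 by the methods' t-test as well, and 1 at an unadjusted p under 0.05). On the stiff ECM 6 were called lower than in normal and 1 lower than on the soft ECM. In each of these stiff ECM comparisons 8 of 8 were lower at an unadjusted limma p under 0.05. Such a p was found for 7488 (against normal) and 5392 (against soft ECM) of all probes, in either direction. The muscle sums were 89729.6 to 109754, 82936 to 95535 and 51836 to 67072 (normal, soft and stiff ECM). Muscle, macrophage and adipocyte transcripts were present in this RNA labelled as chondrocyte RNA. Of their markers 7 of 8, 5 of 5 and 3 of 4 had a mean over all 9 samples above the olfactory 95th percentile of 302.5. Of the chondrocyte markers 6 of 8 did. The markers ran from Mylpf (25.7 to 52.6) to Acta1 (17871 to 32837) for muscle, from Csf1r (258 to 356) and Adgre1 (258 to 441) to Cd68 (3433 to 5269.5) for macrophages and from Plin1 (124 to 280) and Adipoq (106 to 585) to Lpl (19068 to 29550.0) for adipocytes. Not all of the counted markers passed 302.5 in each group. The group mean was 142 for Adipoq in normal, and 277 for Csf1r and 299.5 for Itgam on the soft ECM. It was 268 (soft ECM) and 290 (stiff ECM) for Adgre1, and 291 for Col9a1 on the stiff ECM. Of 5 macrophage markers 2 (Itgam and Lyz1) were higher on the stiff ECM than in either other group. The others were not called, and on the stiff ECM against normal they had -0.39 (Cd68), -0.41 (Adgre1) and -0.12 (Csf1r). Of 4 adipocyte markers 1 (Adipoq) was higher on each gel than in normal, and of 4 endothelial and 4 tested osteoblast markers limma called 0 in any comparison (at most 1 and 0 at an unadjusted p under 0.05, and 1 and 0 by the methods' t-test), with Bglap at or near 0 (-3.96 to 2.85).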

How the data were processed

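RNA of 9 samples was measured on single-colour (Cy5) Phalanx Mouse OneArray v2 arrays, 2 per sample by the methods. The deposited intensity values are those the authors made. By the methods, flagged spots and control probes were removed, and arrays were scaled by their median in Rosetta Resolver (no version is given in the sources used here) and averaged. The sample medians of the deposited values were nevertheless unequal, from 124 in normal replicate 1 to 179 in normal replicate 3. All values of a sample were whole multiples of its smallest step (within 0.01), so whether they are averages is not settled. They are linear, run from -8.27 to 70058 and hold 26423 probes. Samples were grouped by their titles. Gene symbols came from the platform table, updated by gene number through RefSeq, with 21876 probes having 1 symbol and 4547 none.

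Log2 of the intensity was taken with no offset or further normalization, and 24942 probes above 0 in all samples were tested (1481 were not). All 9 samples were fitted together in limma 3.58.1 (R 4.3.3; lmFit and eBayes with an intensity trend), with Benjamini-Hochberg adjustment over all tested probes of a comparison, at 0.05. The fit was tested on simulated data. Plots were made with matplotlib 3.10.9 under Python 3.11.15. The median intensity was 124 to 179 per sample, the samples correlated at 0.97 to 0.99 and no 2 were identical. 3 samples per group limit the precision.

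The members and all gene lists were chosen with earlier results of these data known. From each of 6 lists (further family genes, chondroitin and dermatan sulfate assembly, keratan sulfate and tyrosine sulfation, collagens, growth factors and receptors, proteases) up to 3 genes with the smallest p per comparison could be named, and 7 marker lists were counted. Chosen outside that rule, after their values were seen, were the further collagens, Nol8, Iars, Eea1, Atp2b3 and the marker genes with their ranges. Tsku, Fam20b and Lyz2 were not matched, and Tgfbr1, Lrp6 and Bglap were at or below 0 in a sample and not tested. The alternatives were quantile, median and loess scaling, the upper 50% of probes, a floor of 3.21, an offset of 36.0, no intensity trend, sample weights, 2 groups only, a replicate block, the methods' t-test (Student's, on log2 values, same adjustment), 1 probe per gene and each sample left out. Leaving out saturated samples was added after seeing the values. Promoter windows are from RefSeq (GRCm38.p6) and 7 of the 9 genes were matched. Resolver's error-weighted model needs array error estimates and was not used.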

Additional observations from a re-analysis of the deposited data

How the results depend on the processing

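Fmod was lower on both gels against normal in every alternative, and its call was lost only by the methods' t-test (-0.94 and -0.93, adjusted p = 0.07 and 0.059); Prelp lost its calls by that test (0.093 and 0.17), on the soft ECM with no intensity trend (0.052) and on the stiff ECM without stiff ECM replicate 2 (0.054). Over all 24942 probes the methods' t-test called 0 higher and 6 lower on the soft ECM against normal, and 4 and 16 on the stiff ECM. Against normal it could thus call few genes of any list, while between the gels it called 208 higher and 15 lower. The count of members called lower on the soft ECM was 2, and it was 0 by the methods' t-test, 1 with no intensity trend and 2 with each sample left out. On the stiff ECM against normal it was 3, and it was 0 by the methods' t-test, 5 with sample weights (Fmod, Prelp, Bgn, Aspn and Epyc) and 1 to 4 with each sample left out; between the gels it was 1 with sample weights (Ogn) and 0 with each sample left out. Bgn passed in 8 of 22 alternatives. With the replicate number as a block the counts were 0, 2 and 2 (stiff against soft, soft and stiff against normal), and Bgn lost its call (limma adjusted p = 0.06). Same-numbered samples had correlations of their deviations from -0.22 to 0.13, beside -0.23 to 0.19 for samples with different numbers. These values show no sign of a pairing by number, but with 3 samples per group they cannot settle it.

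Small differences that did not pass changed sign. Stiff minus soft, Fmod was -0.02, -0.24, -0.01 and -0.01 (quantile, median and loess scaling, sample weights) and -0.04 to 0.08 with each sample left out, Lum -0.18 and Prelp -0.13 after median centring, Prelp -0.05 to 0.24 and Epyc -0.10 to 0.04 with each sample left out. The other Dcn probe gave 0.24 between the gels and -0.30 on the soft ECM. After quantile and loess normalization Lum was 0.05 and 0.00 (soft ECM) and 0.15 and 0.14 (stiff ECM), and -0.13 to 0.05 with each sample left out, and Dcn 0.03 and 0.07 (stiff ECM). The cause was not tested. Between the gels, where the main counts of the gene lists were 0, leaving out normal replicate 1 gave 2 of the growth factors and receptors and 1 protease, normal replicate 3 gave 1 protease and stiff ECM replicate 3 gave 1 growth factor or receptor. On the stiff ECM against normal, leaving out normal replicate 3 gave 1 keratan sulfate gene.

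The median difference of all probes between stiff and soft ECM was 0.18 as deposited, 0.00 after quantile normalization and -0.06 after median centring. Calls over all probes then split into 337 higher and 104 lower as deposited, 469 and 700 (quantile), 206 and 1274 (median) and 421 and 565 (loess). Soft ECM against normal split into 123 and 801 as deposited and 542 and 538 (quantile), 333 and 331 (median) and 606 and 617 (loess), and stiff ECM against normal into 1197 and 1281, and 1725 and 3836 after median centring. Omd fell outside the upper 50% of probes and has no value there. The ceiling limits Dcn and Bgn, and dim signal limits Omd and Kera.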
